A study of Mus musculus with 8 samples.

Results

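The miR-99, miR-100 and miR-125 family consisted here of 5 mouse microRNAs (miRNAs, short RNAs that lower the output of messenger RNAs), namely miR-99a-5p, miR-99b-5p, miR-100-5p, miR-125a-5p and miR-125b-5p. They were read by identifier from a table of 3222 probe sets, 1908 of which measure mature miRNAs, and the rule that lists them uses no measured value, though it was written with earlier results of these data known. The values are deposited log2 intensities, on which a difference of 1 unit is a doubling of signal.

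The study compared whole hearts of male C57/BL6 mice, labelled 8 weeks old, at 21 days after surgery. In 4 hearts, titled MI+nc and numbered 1, 4, 5 and 7, the left anterior descending coronary artery had been ligated, which causes a myocardial infarction (MI). The other 4, titled Sham+nc and numbered 1 to 4, came from animals with a sham operation. Both groups carry the suffix nc, which the labels do not explain. Total RNA of each heart was tailed, biotin-labelled and hybridised to 1 Affymetrix array. The labels do not say how much of each heart was scar or whether a heart was 1 animal, so p-values measure the spread between these samples. In whole tissue, fewer cells of a type and less of a miRNA per cell cannot be told apart. The heart label could not be checked against heart muscle miRNAs, because the tables used here do not pair their identifiers with names.

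A miRNA finds its messenger RNAs mainly through its seed, bases 2 to 8 from the 5′ end, so miRNAs with the same seed are expected to share many targets. miR-125 is the vertebrate relative of lin-4, the first miRNA described in the worm Caenorhabditis elegans, and miR-99 and miR-100 form a family of their own that represses the growth kinase mTOR. In mammals both families lie together with let-7 genes in clusters. miR-125b-5p is known for a role in the activation of cardiac fibroblasts.

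All 5 names matched entries of the RefSeq table of mature miRNAs (build GRCm38.p6). The sequences are shown because they define the 2 families and how alike their members are. Capitals mark the seed.
miR-99a-5p: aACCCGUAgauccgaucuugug
miR-99b-5p: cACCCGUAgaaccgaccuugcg
miR-100-5p: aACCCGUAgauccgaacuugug
miR-125a-5p: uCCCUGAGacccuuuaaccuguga
miR-125b-5p: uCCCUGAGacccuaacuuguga

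The first 3 share the seed ACCCGUA and the last 2 share CCCUGAG. Counted from the 5′ end, miR-99a-5p and miR-100-5p differ at 1 of 22 bases (U16A, with the miR-99a-5p base first). miR-99a-5p and miR-99b-5p differ at 4 (A1C, U11A, U16C and U21C). miR-125a-5p, with 24 bases, and miR-125b-5p, with 22, are identical over the first 13 bases and the last 5. Sequences this close can hybridise to each other's probes, and how much they did on these arrays was not tested. In the RefSeq table no other mature mouse miRNA carried the miR-99/100 seed and 3 others carried the miR-125 seed, namely miR-351-5p, miR-6367 and miR-6394. Their rows could not be identified by name and were not analysed here.

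The genes form 3 clusters, all on the plus strand. On chromosome 17, miR-99b-5p (chr17:17830194-17830215) lies 601 bases before miR-125a-5p (chr17:17830817-17830840), with let-7e between them, inside the bounds of the protein-coding gene Spaca6. On chromosome 16, miR-99a-5p (chr16:77598940-77598961) lies 47317 bases before one copy of miR-125b-5p (chr16:77646279-77646300), with let-7c-1 between them. On chromosome 9, miR-100-5p (chr9:41531437-41531458) lies 50481 bases before the other copy (chr9:41581940-41581961), with let-7a-2 between them, inside the bounds of the long non-coding gene Mir100hg. The 2 copies of miR-125b-5p are identical in sequence, so its probe set cannot assign signal to either cluster.

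At 21 days after infarction, none of the 5 miRNAs differed between MI and sham hearts past the threshold (limma over all 1908 mature probe sets, Benjamini-Hochberg adjusted p from 0.771 to 0.984, threshold 0.05), and none had an unadjusted p under 0.05. Over all mature probe sets 10 passed, which is 0.524%, and 120 had such an unadjusted p, which is 6.29%. The fitted differences of the 5 ran from -0.05 to 0.16 log2 units, with 4 means higher in MI hearts and that of miR-100-5p lower. Only that of miR-125b-5p kept its direction under every alternative tried. Leaving out any single array could not turn it, since its groups did not overlap. Settings that changed only the test or the probe sets tested left every difference unchanged. Bright mature probe sets, those that averaged at least 5 over the 8 arrays, numbered 271 and had a median difference of -0.11. The 74 that averaged at least 10, as all 5 members did, had a median of -0.10. All member values lay between 10.08 and 14.09. Of the 22 spike-in controls, 17 read at most 2.06 and 5 read from 14.73 to 15.92, the highest value in the table.

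miR-99a-5p (MIMAT0000131_st), from the chromosome 16 cluster, measured 11.98, 11.66, 11.79 and 11.67 log2 units in MI hearts 1, 4, 5 and 7, against 11.72, 11.72, 11.80 and 11.75 in sham hearts 1 to 4. The groups overlapped, with MI heart 1 above all others and MI hearts 4 and 7 below every sham heart. Its mean was 11.77 ± 0.15 in MI hearts and 11.75 ± 0.04 in sham hearts (SD, n = 4 each), a difference of 0.03 ± 0.09 (SE; adjusted p = 0.974 by limma). The 95% interval, expressed as a fold, ran from 0.878 to 1.18. Without MI heart 1 the difference was -0.042.

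miR-99b-5p (MIMAT0000132_st), its paralog from chromosome 17, measured 11.37, 10.84, 11.44 and 11.03 in MI hearts 1, 4, 5 and 7, against 10.76, 11.00, 11.54 and 11.28 in sham hearts 1 to 4. The sham values reached both lower and higher than the MI values. Its mean was 11.17 ± 0.28 in MI hearts and 11.15 ± 0.34 in sham hearts (SD, n = 4 each), a difference of 0.02 ± 0.20 (SE; adjusted p = 0.984 by limma). The interval of the fold ran from 0.737 to 1.40. The difference was negative when 1 heart was left out, whether sham heart 1 (-0.10), sham heart 2 (-0.024), MI heart 1 (-0.043) or MI heart 5 (-0.064).

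miR-100-5p (MIMAT0000655_st), from chromosome 9, measured 10.63, 10.29, 10.38 and 10.08 in MI hearts 1, 4, 5 and 7, against 10.10, 10.41, 10.56 and 10.51 in sham hearts 1 to 4. The highest and the lowest values were both MI hearts, numbered 1 and 7. Its mean was 10.34 ± 0.23 in MI hearts and 10.39 ± 0.21 in sham hearts (SD, n = 4 each), a difference of -0.05 ± 0.15 (SE; adjusted p = 0.973 by limma) and an interval of 0.762 to 1.23 as a fold. The difference was 0.027 after quantile normalization of the table and 0.061 after each array was centred on the median of its brightest 25% of mature probe sets, so its sign depended on the scaling.

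**Figure D1:**
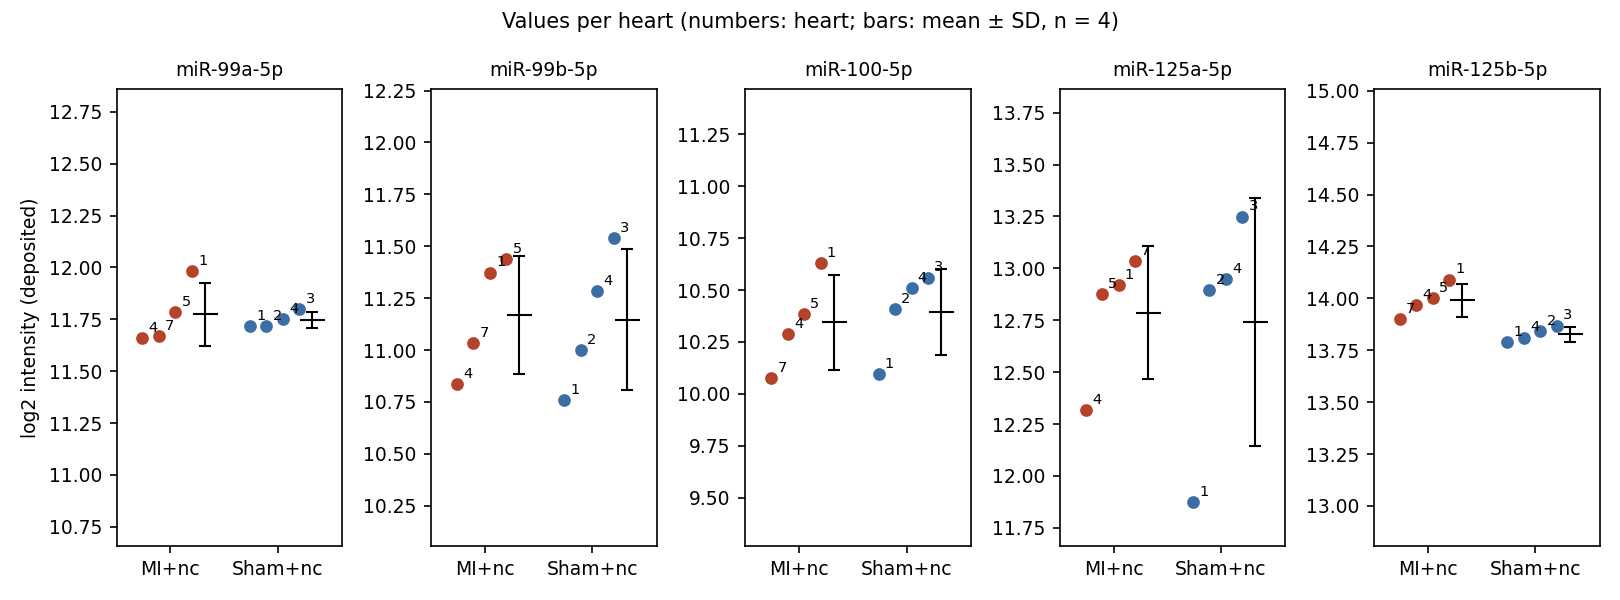
Deposited log2 intensity of the 5 miRNAs in each heart, MI+nc left and Sham+nc right, with the heart number beside each point and the mean ± SD of 4 hearts at the right of each group. Every panel spans the same number of log2 units; the groups overlap for all but miR-125b-5p, and sham heart 1 lies lowest and sham heart 3 highest of the sham hearts in all 5 panels.

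miR-125a-5p (MIMAT0000135_st), the neighbour of miR-99b-5p on chromosome 17, measured 12.92, 12.32, 12.87 and 13.04 in MI hearts 1, 4, 5 and 7, against 11.87, 12.90, 13.25 and 12.95 in sham hearts 1 to 4. Sham heart 1 was the lowest of all 8 and sham heart 3 the highest. Its mean was 12.79 ± 0.32 in MI hearts and 12.74 ± 0.60 in sham hearts (SD, n = 4 each), a difference of 0.05 ± 0.30 (SE; adjusted p = 0.984 by limma). This was the least precise of the 5, with a fold interval of 0.639 to 1.67. The difference was -0.24 without sham heart 1 (limma, adjusted p = 0.808) and -0.04 without MI heart 7, so its sign depended on single arrays.

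miR-125b-5p (MIMAT0000136_st), encoded in both the chromosome 9 and the chromosome 16 cluster, measured 14.09, 13.97, 14.00 and 13.90 in MI hearts 1, 4, 5 and 7, against 13.79, 13.84, 13.87 and 13.81 in sham hearts 1 to 4. It was the only member whose groups did not overlap, and the lowest MI value lay 0.03 log2 units above the highest sham value. Such separation, with all MI values higher, occurred in 55 of 1908 mature probe sets (2.88%), and in 5 of the 74 that averaged at least 10 (6.76%), miR-125b-5p included. Its mean was 13.99 ± 0.08 in MI hearts and 13.83 ± 0.04 in sham hearts (SD, n = 4 each). The difference of 0.16 ± 0.08 (SE) did not pass (limma, unadjusted p = 0.0625, adjusted p = 0.771), and its fold of 1.12 had an interval of 0.993 to 1.26.

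**Figure D2:**
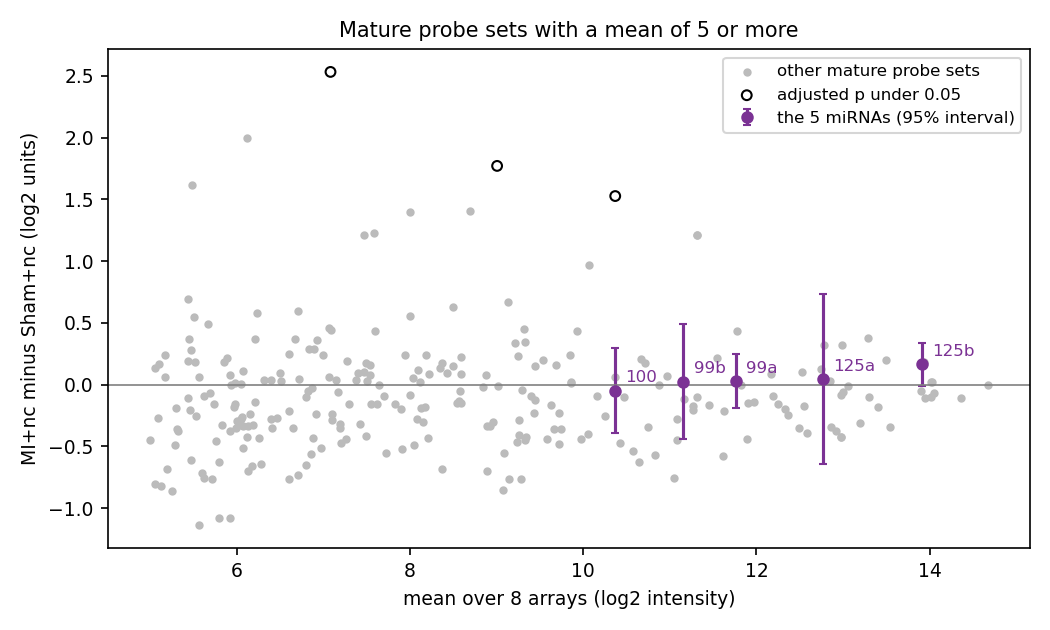
Difference between MI+nc and Sham+nc hearts (vertical axis, log2 units) against the mean over 8 arrays (horizontal axis, log2 intensity) for the 271 bright mature probe sets. Purple points with 95% limma intervals are the 5 miRNAs, whose differences run from -0.05 to 0.16 with every interval spanning 0; open circles are the probe sets with an adjusted p under 0.05.

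The spread between hearts differed widely among the members. The SD pooled over the groups was 0.06 for miR-125b-5p, the smallest of those 74 mature probe sets, and 0.11 for miR-99a-5p, the 8th smallest. It was 0.22 for miR-100-5p, 0.31 for miR-99b-5p and 0.48 for miR-125a-5p, where the median of the 74 was 0.26. Both chromosome 17 members thus varied more between hearts than that median, and the other 3 less. This band mixes levels, and miR-125b-5p averaged 13.91, with SDs of 0.08 in MI hearts and 0.04 in sham hearts. At a similar level, MIMAT0000125_st (mean 14.02) had SDs of 0.09 and 0.07, and MIMAT0000219_st (mean 13.90) had 0.10 and 0.05. Whether the spread followed the level was not tested. Without sham heart 1 the pooled SD was 0.26 for miR-125a-5p and 0.28 for miR-99b-5p, against a median of 0.21 over the 74. limma moderates the spread of each probe set towards that of the others, and for miR-125b-5p this raised the standard error. Under the unmoderated test its unadjusted p was 0.00935, with an adjusted p of 0.496. Moderation towards brighter probe sets raised it instead. The unadjusted limma p was 0.186 with a robust, intensity-trended prior, 0.218 within the brightest 50% of mature probe sets and 0.403 within the brightest 25%.

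The scaling of the arrays bore on the size of these differences. Centring on the brightest 25% of mature probe sets moved the median difference of all mature probe sets from -0.0039 to 0.11. Under it all 5 means were higher in MI hearts, by 0.061 for miR-100-5p to 0.27 for miR-125b-5p, and none passed (limma, adjusted p = 0.984 for each). By construction this scaling adds the same shift to every probe set, so relative to it the differences are those of the deposited values. After quantile normalization all 5 means were also higher in MI hearts, by 0.027 to 0.17, with adjusted p from 0.706 to 0.978 (limma). For miR-125b-5p the unadjusted p was then 0.0422 (limma, adjusted p = 0.706).

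**Figure D3:**
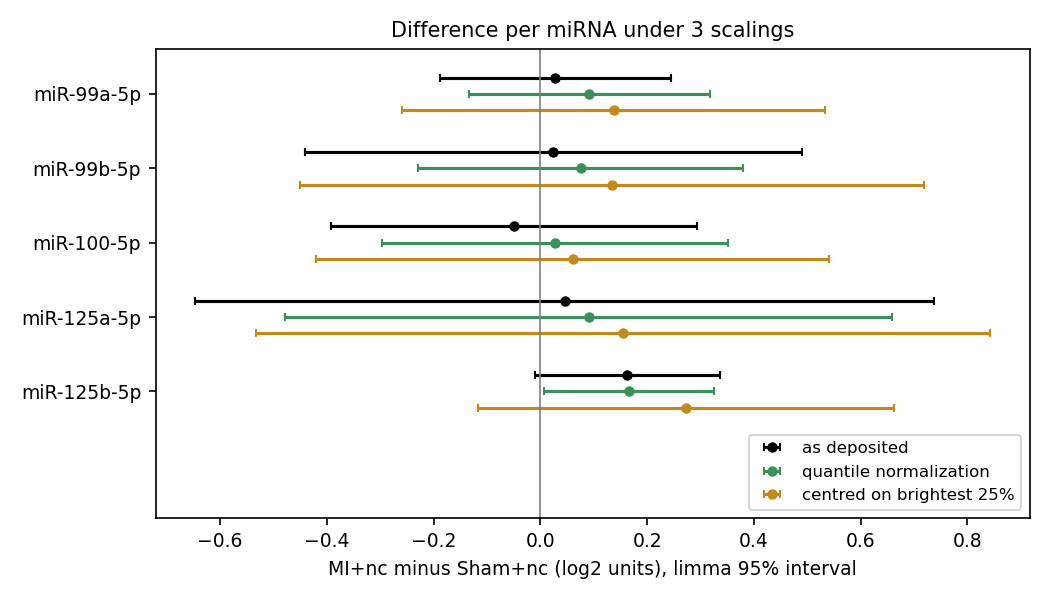
Difference between MI+nc and Sham+nc hearts (log2 units, points) with the 95% limma interval (bars) for each miRNA, from the deposited values, after quantile normalization and after centring on the brightest 25% of mature probe sets. All intervals span 0 except that of miR-125b-5p after quantile normalization, which starts at 0.0075.

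Paralogs were set side by side through the log2 ratio of their signals within each array. This cancels a shift that is equal for both probe sets, but not an array effect that differs with intensity. The level of a ratio also depends on the probes, so only its difference between groups was read. There were 7 pairs, 4 of one seed and 3 of one cluster, each tested two-sided by exact permutation of the 8 arrays (70 assignments, smallest p they allow 0.0286). None passed after adjustment over the 7 pairs, the lowest adjusted p being 0.400, and none had an unadjusted p under 0.05. A single pair at that smallest p could not pass the adjustment, so failing it says little about any one pair. Without MI heart 1, miR-99a-5p over miR-125b-5p had the smallest p (exact permutation p = 0.0286) and an adjusted p of 0.2.

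Within the miR-99/100 seed, the ratio of miR-99a-5p over miR-99b-5p was 0.60 ± 0.19 in MI hearts and 0.60 ± 0.30 in sham hearts (SD, n = 4 each). The difference was 0.0036 log2 units (exact permutation p = 0.971), and shifts from -0.61 to 0.56 were not rejected at 0.05 by the same test. For miR-99a-5p over miR-100-5p, the pair that differs at 1 base, the ratio was 1.43 ± 0.11 in MI hearts and 1.35 ± 0.18 in sham hearts (SD, n = 4 each), a difference of 0.08 (exact permutation p = 0.457) with shifts from -0.27 to 0.35 not rejected. For miR-99b-5p over miR-100-5p the difference was 0.07 (exact permutation p = 0.657), with shifts from -0.43 to 0.46 not rejected. With the replicate number as a block, the differences of both ratios over miR-100-5p turned negative, to -0.069 for miR-99a-5p and -0.072 for miR-99b-5p. Those estimates rest only on the hearts numbered 1 and 4, the numbers that both groups share.

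Within the miR-125 seed, the ratio of miR-125a-5p over miR-125b-5p was -1.17, -1.65, -1.13 and -0.86 in MI hearts 1, 4, 5 and 7, against -1.91, -0.95, -0.62 and -0.86 in sham hearts 1 to 4. Sham heart 1 was the lowest and sham heart 3 the highest of the 8, the same hearts as for miR-125a-5p itself. The ratio averaged -1.20 ± 0.33 in MI hearts and -1.09 ± 0.57 in sham hearts (SD, n = 4 each). The difference of -0.12 lay within that spread (exact permutation p = 0.771), with shifts from -1.03 to 1.05 not rejected. Without sham heart 1 it was -0.39.

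Within clusters, the pair from chromosome 17, miR-99b-5p over miR-125a-5p, differed by -0.02 between MI and sham hearts (exact permutation p = 0.971). The ratio of miR-99a-5p over miR-125b-5p, from chromosome 16, was -2.11, -2.31, -2.22 and -2.23 in MI hearts 1, 4, 5 and 7, against -2.07, -2.12, -2.07 and -2.06 in sham hearts 1 to 4. All MI hearts but heart 1 lay below every sham heart. The ratio averaged -2.22 ± 0.08 in MI hearts and -2.08 ± 0.03 in sham hearts (SD, n = 4 each), a difference of -0.13 (exact permutation p = 0.0571, adjusted p = 0.400). After quantile normalization it was -0.075 (exact permutation p = 0.343, adjusted p = 0.943). The third pair, miR-100-5p over miR-125b-5p from chromosome 9, differed by -0.21 (exact permutation p = 0.143, adjusted p = 0.5).

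**Figure D4:**
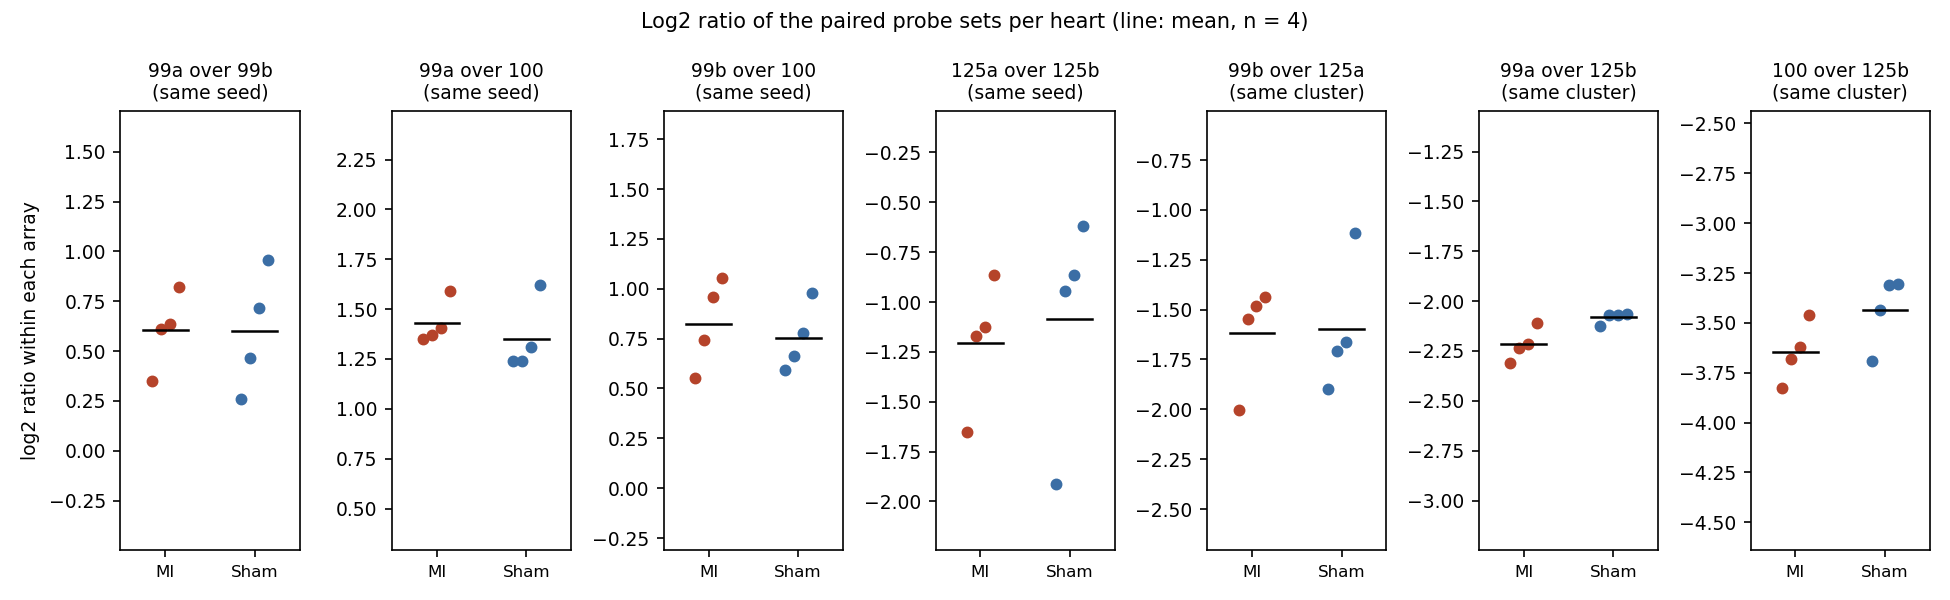
Log2 ratio of the first over the second miRNA of each pair within every array, MI+nc left and Sham+nc right, with 1 point per heart and a line at the mean of 4 hearts. The groups overlap in all 7 pairs, and sham heart 1 stands apart at -1.91 for miR-125a-5p over miR-125b-5p.

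The members shared an order of hearts within the sham group. Sham heart 1 had the lowest and sham heart 3 the highest sham value in all 5. The same was true of 111 of the 271 bright mature probe sets (41.0%), so the order was common among bright probe sets. Among MI hearts the order was mixed. Heart 1 was highest for miR-99a-5p, miR-100-5p and miR-125b-5p, heart 5 for miR-99b-5p and heart 7 for miR-125a-5p. Bacterial hybridisation controls averaged 11.35, 11.56, 11.66 and 11.38 in MI hearts 1, 4, 5 and 7, against 11.15, 11.11, 11.87 and 11.61 in sham hearts 1 to 4, so sham heart 3 was also highest there. Their part in the order of the hearts was not tested.

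Over the 8 arrays, all 10 correlations between members were positive with the deposited values, and none of the 15 relations examined (10 between members and 5 with the hybridisation controls) passed after adjustment (exact permutation tests, lowest adjusted p = 0.109). The largest was that of the cluster neighbours miR-99b-5p and miR-125a-5p, with Pearson's r = 0.793 (exact permutation p = 0.00724, adjusted p = 0.109) and a rank correlation (Spearman's rho) of 0.667 (exact permutation p = 0.0831, adjusted p = 0.289). Without sham hearts 1 and 3, the farthest from the median of miR-99b-5p, r was 0.568. It was 0.631 within MI hearts and 0.889 within sham hearts. With the group means removed, which was not tested, it was 0.792 and no longer the largest. So treated, miR-125b-5p had r = 0.894 with miR-99a-5p and 0.889 with miR-100-5p, against 0.604 and 0.374 over all arrays. Without MI heart 7, miR-99b-5p with miR-125a-5p (r = 0.876) and miR-100-5p with miR-125a-5p (r = 0.904) passed after adjustment (exact permutation test, adjusted p = 0.0417 for both). No relation passed when any other single array was left out. Over all arrays miR-100-5p with miR-125a-5p had r = 0.572 (exact permutation p = 0.127, adjusted p = 0.273). For this pair r was 0.0065 within MI hearts, 0.986 within sham hearts and 0.279 without sham heart 1. The seed mates miR-125a-5p and miR-125b-5p had the smallest r of the 10 over all arrays, 0.220 (exact permutation p = 0.602, adjusted p = 0.695). Their rho was 0.0714 (exact permutation p = 0.882, adjusted p = 0.882), and r was -0.313 without sham heart 1 and MI heart 4. Within sham hearts their r was 0.855, and within MI hearts it was 0.033. miR-99b-5p and the hybridisation controls had r = 0.689 (exact permutation p = 0.0629, adjusted p = 0.189) and rho = 0.714 (exact permutation p = 0.0576, adjusted p = 0.288), with r = 0.546 without sham hearts 2 and 3. Within sham hearts this r was 0.942, and within MI hearts it was 0.070.

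These correlations moved with the scaling. For miR-99a-5p and miR-99b-5p, r was 0.655 with the deposited values, -0.11 after quantile normalization and 0.896 after centring on the brightest 25%. For miR-99b-5p and miR-125a-5p it was 0.793 with the deposited values, 0.792 after quantile normalization and 0.83 after the centring, the smallest change among the 10 pairs. With the deposited values and after quantile normalization 0 of the 10 pairs passed after adjustment, while 3 and 1 of them had an unadjusted p under 0.05. After the centring 7 passed (exact permutation test, adjusted p from 0.0131 to 0.0495), with all 10 positive, and so did miR-99b-5p with the hybridisation controls (r = 0.839, adjusted p = 0.0289). The other members came close, with r from 0.668 to 0.769 with these controls (exact permutation test, adjusted p from 0.0510 to 0.0761). The centring applies 1 shift per array to every probe set, which both members of a pair share.

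**Figure D5:**
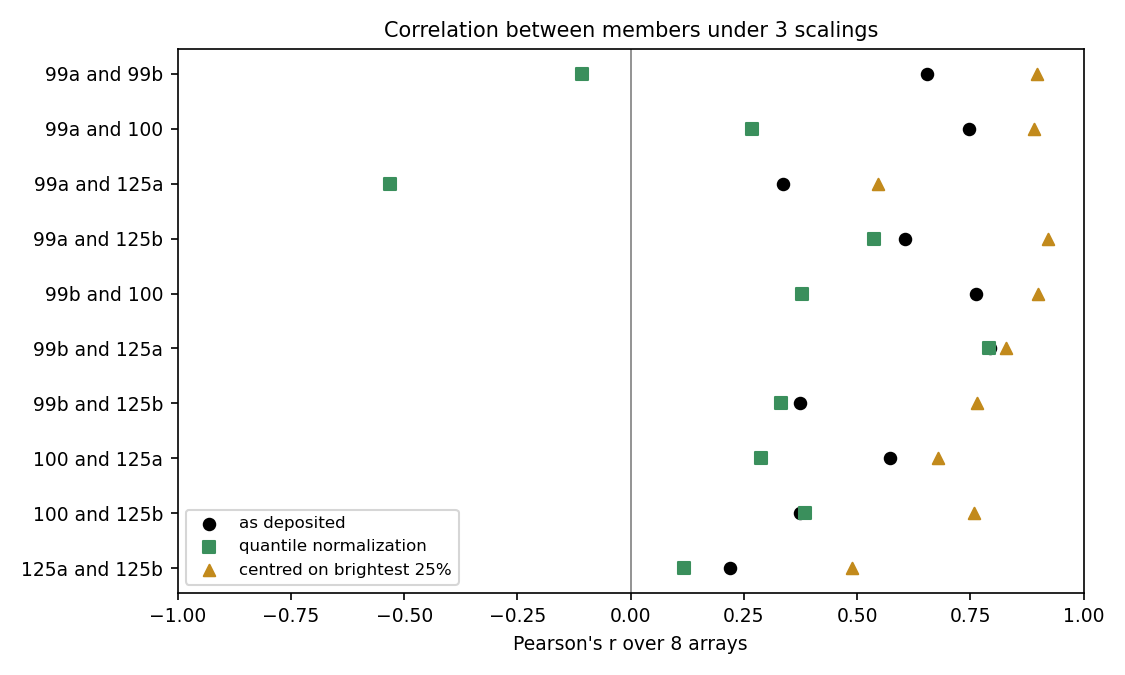
Pearson's r over 8 arrays (horizontal axis) for the 10 pairs of members, from the deposited values, after quantile normalization and after centring on the brightest 25% of mature probe sets. The pair miR-99b-5p and miR-125a-5p lies at about the same place under the 3 scalings, while miR-99a-5p and miR-99b-5p runs from -0.11 to 0.896.

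Against the other bright mature probe sets, identical profiles counted once, the members were not each other's nearest in pattern. Of the 268 probe sets ranked by Pearson's r with it over the 8 arrays, miR-100-5p stood 5th for miR-99a-5p, and miR-125a-5p stood 28th for miR-99b-5p. miR-125b-5p stood 148th for miR-125a-5p, while miR-125a-5p stood 61st for miR-125b-5p at the same r. The member nearest to miR-125b-5p was miR-99a-5p, which stood 16th. The most alike outside the family were MIMAT0000706_st for miR-100-5p (r = 0.975), MIMAT0000590_st for miR-99b-5p (r = 0.968) and MIMAT0000524_st for miR-125a-5p (r = 0.968), identifiers that the tables used here do not pair with names. The 3 probe sets most like miR-125b-5p had r from 0.907 to 0.915 and means 1.21 to 1.41 log2 units higher in MI hearts. Those most like the other 4 members differed between groups by -0.19 to 0.17. These likenesses are descriptions of 8 arrays that share their group structure and their scaling.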

How the data were processed

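MicroRNAs were measured on Affymetrix miRNA arrays in 4 MI+nc and 4 Sham+nc hearts. The authors deposited log2 intensities from RMA, a method of background correction, between-array normalization and probe summary, which the submitters' processing notes name. The RMA version is not given in the sources used here. With 8 arrays, their number sets the precision.

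MI was compared with sham by the two-sided moderated test of limma 3.58.1 (R 4.3.3) on all 1908 mature probe sets, with Benjamini-Hochberg adjustment over them and a threshold of 0.05. Within-array log2 ratios and correlations were tested by exact permutation (Python 3.11.15, numpy 2.4.6). An interval of shifts holds those the permutation test did not reject. Both procedures were tested on simulated data. The members, pairs and lists were chosen with earlier results of these data known, although the rule for the members uses identifiers and no measured value. The level bands of 5 and 10 were also chosen that way. The 5 members were named in full, and the 3 probe sets most like each were described without names.

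The planned opposite arms, let-7 partners, hairpins, other miRNAs of the same seeds and cell type markers could not be matched, since no table used here pairs identifiers with names, and were not analysed here. Alternatives covered restriction to bright probe sets, scaling, variance prior, weights per array, a block for the replicate number, adjustment, a hybridisation covariate and leaving out each array.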

Additional observations from a re-analysis of the deposited data

Results flagged for a closer look

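The log2 ratio of miR-99a-5p over miR-125b-5p in sham heart 2 stood apart from the other sham hearts. It was -2.12, while the others lay between -2.07 and -2.06, so the gap took up a share of 0.837 of the whole range of the sham values, above Dixon's critical value for 4 samples. The range itself was small. Of 24 groups of 4 values examined in this way, 1 had such a value, and chance gives about 1 in 20.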

How the results depend on the processing

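None of the 5 members passed the threshold under any of the 18 alternatives run on them (limma and the unmoderated test, lowest adjusted p = 0.496). No pair ratio passed under quantile normalization or without any array, where a single pair at the smallest permutation p could not pass. Only miR-125b-5p kept its direction under every one of the 18, many of which could not turn it. Leaving out a single array could not, since its groups did not overlap. Settings that changed only the test or the probe sets tested left its difference unchanged. Leaving out each array gave differences of 0.13 to 0.19 for miR-125b-5p, -0.042 to 0.067 for miR-99a-5p, -0.10 to 0.16 for miR-99b-5p, -0.15 to 0.040 for miR-100-5p and -0.24 to 0.21 for miR-125a-5p. miR-100-5p was higher in MI hearts after quantile normalization (0.027), after centring (0.061) and with the replicate block (0.16), and miR-99b-5p was lower with the hybridisation covariate (-0.013). The causes were not tested.

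Leaving out each array gave MI minus sham differences of the pair ratios of -0.11 to 0.12 for miR-99a-5p over miR-99b-5p, -0.0024 to 0.17 for miR-99b-5p over miR-100-5p, -0.39 to 0.038 for miR-125a-5p over miR-125b-5p and -0.12 to 0.14 for miR-99b-5p over miR-125a-5p, while the other 3 pairs kept their sign without any one array. Of the correlations, r turned after quantile normalization for miR-99a-5p with miR-99b-5p (-0.11), for miR-99a-5p with miR-125a-5p (-0.53), and for the hybridisation controls with miR-99a-5p (-0.42) and with miR-100-5p (-0.092). Leaving out each array gave r of -0.31 to 0.35 for miR-125a-5p with miR-125b-5p, -0.039 to 0.78 for miR-99a-5p with miR-125b-5p and -0.053 to 0.44 for the hybridisation controls with miR-125b-5p.

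As deposited, 10 mature probe sets passed. There were 20 in the brightest 50%, 22 in the brightest 25%, 25 after centring, 18 with a robust, intensity-trended prior, 17 with weights per array and 7 to 17 without each array, the highest without sham heart 3. There were 15 after quantile normalization, 9 with joint adjustment over mature and hairpin probe sets, 7 in the unmoderated test and 13 with the hybridisation covariate. With the replicate block there were 0 (limma, 76 with an unadjusted p under 0.05), with 1 residual degree of freedom. The groups share only the numbers 1 and 4, and deviations from the group means correlated at -0.29 and -0.04 between same-numbered hearts, so they were not treated as pairs. With the replicate block, where every difference rests only on the hearts numbered 1 and 4, those of the pair ratios ran from -0.14 to 0.0035. Those of miR-99a-5p (-0.069) and miR-99b-5p (-0.072) over miR-100-5p turned negative. Under quantile normalization the difference of miR-99a-5p over miR-125b-5p was -0.075. The alternatives for opposite arms, let-7 partners, hairpins and other miRNAs of the same seeds were not run, because their rows could not be named. The correlation alternatives and the hybridisation covariate of the pair ratios were chosen after seeing the data.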
